A study of Mus musculus with 12 samples.

Results

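The genes described here encode the potassium channels that are not opened mainly by voltage, together with their partner subunits: the Kcnk leak channels, the Kcnj inward rectifiers, the calcium-activated Kcnm and Kcnn channels, the sodium-activated Kcnt channels and the related Kcnu channel. They were taken by name, as every gene whose symbol begins with Kcnj, Kcnk, Kcnm, Kcnn, Kcnt or Kcnu. That gave 36 of the 15322 genes measured: 13 Kcnj, 11 Kcnk, 5 Kcnm, 4 Kcnn, 2 Kcnt and 1 Kcnu. The families themselves were chosen with earlier results of these data known. RNA was sequenced from lumbar L3 to L5 dorsal root ganglia of wild-type mouse pups at postnatal day 9. From postnatal day 2 to postnatal day 9 dams and pups were kept on limited bedding, a protocol that imposes early life stress, or on control bedding. The 12 libraries made up 4 groups of 3: control females, control males, stress females and stress males. Litter of origin and pooling of animals are not labelled, and p-values therefore reflect only the variation among these libraries, which may be technical.

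Potassium leaving the cell through these channels pulls the membrane towards negative potentials. Leak channels of the Kcnk family, whose subunits carry a pair of pore loops each, are open at rest and are known to set how easily a sensory neuron fires. Inward rectifiers pass potassium best near and below the resting potential, and in ganglia they are known from both neurons and satellite glia. The calcium- and sodium-activated channels open when these ions enter during firing and shape what follows an action potential.

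The values were normalized counts, taken here as the gene counts of each library divided by the authors' library factor. Library totals were 21250000 to 22390000 after that scaling. All 15 sensory neuron markers were detected, the lowest being Ntrk3 at a mean of 670 normalized counts. Their summed level was 472300 to 502400 in control and 401300 to 435800 in stress libraries, with 3 markers called higher and 4 lower. Most of that fall lay in the neurofilament genes Nefl and Nefh, with means of 170300 and 65610 in control and 128300 and 45090 in stress, while Prph, Avil, Scn10a and Rbfox3 were not called. Of 12 central nervous system markers 5 were analysed, at means from 6.54 for Gfap, too low to be tested, to 440 for the positional gene Hoxb8, and none of the 4 tested was called. Summed red blood cell markers ran from 3714 to 6135 in control and from 5310 to 13920 in stress libraries, with 9 of 12 markers higher and 1 lower in stress. Summed fibroblast markers did not overlap, at 115900 to 123300 and 72930 to 107100, with 5 of 10 lower and 1 higher. Schwann cell markers had 4 of 12 lower and none higher, with overlapping sums of 273800 to 441700 and 285500 to 401600. Endothelial markers had 2 of 12 lower and none higher, with overlapping sums of 4918 to 5844 in control and 4889 to 5631 in stress libraries. Of 10 skeletal muscle and cartilage markers 9 were tested. Col9a1 was called higher and Col2a1 lower, at log2 fold changes of 0.69 ± 0.24 and -1.51 ± 0.06. The sums of this list overlapped, at 1087 to 2089 in control and 679 to 2641 in stress libraries. Over all genes tested 12.8% were called higher and 13.4% lower, the shares to set beside each marker and partner count. The part of these marker differences in the results below was not tested. In such bulk tissue, fewer cells of a type and less RNA per cell cannot be told apart.

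These channel genes differed between limited and control bedding in both directions. Of the 36, 35 passed the filter of at least 10 normalized counts in at least 3 libraries, and Kcnj15 did not. Over both sexes 12 of the 35 were called (limma, Benjamini-Hochberg adjusted p under 0.05 over 15194 genes), 7 higher and 5 lower in stress. That is 34.3%, beside 26.2% of all genes tested, so the count by itself says little about these channels. The shares of all genes called higher and lower were 12.8% and 13.4%. The median log2 fold change was -0.04 over the 35 and 0.01 over all genes. By family, 6 of 11 Kcnk genes were called, 4 of 12 Kcnj genes, 1 of 5 Kcnm genes, 1 of 4 Kcnn genes, and neither Kcnt gene nor Kcnu1. More than 1.5-fold changes were found among called genes for Kcnmb1, Kcnk9 and Kcnj14, 3 of 35, where 4.03% of all genes tested were called and changed that much. The same 12 genes were at an adjusted p under 0.05 in the authors' deposited table, where 26.7% of all genes were.

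Of these 12, 7 were called under each of 23 alternative settings: Kcnmb1, Kcnk18, Kcnk9, Kcnk10, Kcnn2, Kcnk1 and Kcnk13. The other 5, Kcnk3, Kcnj3, Kcnj11, Kcnj12 and Kcnj14, lost their call under at least 1 setting, and the libraries on which each depended are named beside it.

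**Figure D1:**
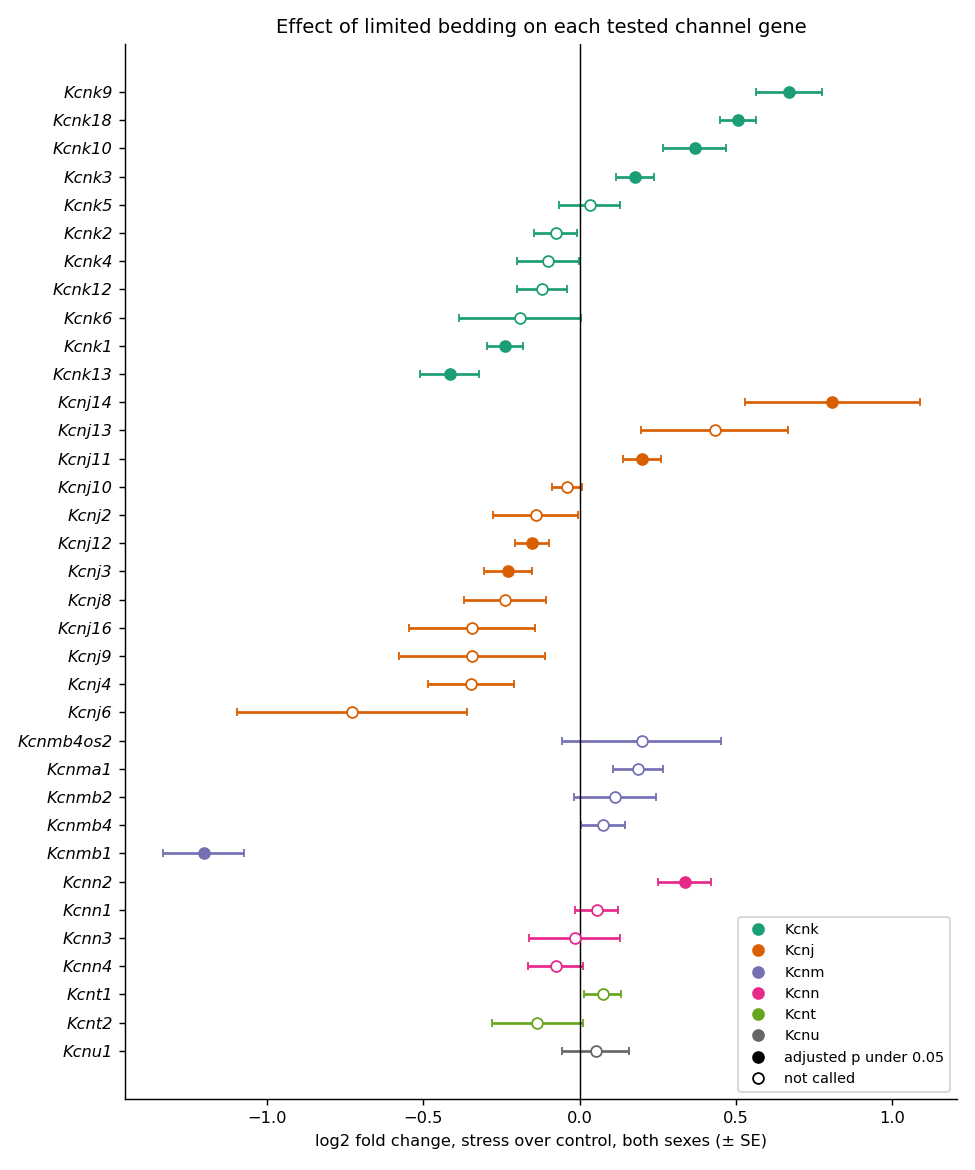
Log2 fold change of stress over control across both sexes for the 35 channel genes tested, by family, with bars for the standard error. Filled points had an adjusted p under 0.05; Kcnmb1, at -1.20, stands apart on the lower side, and the Kcnk genes spread from -0.42 to 0.67.

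The large-conductance calcium-activated potassium channel (BK) showed the largest change, and it lay in an auxiliary subunit. Kcnmb1 encodes the beta1 subunit, which raises the channel's calcium sensitivity and is best known from smooth muscle. Its level was 256, 284 and 388 normalized counts in the control females and 222, 366 and 381 in the control males. It was 133, 129 and 128 in the stress females and 133, 137 and 143 in the stress males. Every stress library thus lay below every control library, and the stress libraries were much closer to each other (SD 5.46, n = 6) than the control libraries were (SD 71.5, n = 6). The log2 fold change was -1.20 ± 0.13 (SE, limma adjusted p = 7.07e-06). It ranged from -1.33 to -1.12 over the 23 alternatives, and leaving out any one library did not end the call.

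None of the other BK genes was called over both sexes. Kcnma1, the pore-forming subunit, was at 633.5 ± 52.4 normalized counts in control and 724 ± 97.4 in stress (SD, n = 6 each). Its log2 fold change was 0.19 ± 0.08 (limma adjusted p = 0.1004), and it was called higher without stress female replicate 2 (0.23, limma adjusted p = 0.0476). Kcnmb4, the beta4 subunit that is common in neurons, was at 546, 509.6 and 438.5 normalized counts in control females, 564, 483 and 472 in control males, 532, 478 and 525 in stress females and 506, 593 and 538 in stress males, which overlap. Its means were 502 ± 47.3 and 528.5 ± 38.4 (log2 fold change 0.08 ± 0.07, limma adjusted p = 0.474). Kcnmb2, which lends the channel inactivation, was at 0.11 ± 0.13 on the same scale. The ratio of Kcnmb1 to Kcnma1 counts was 0.341 to 0.572 in control and 0.151 to 0.207 in stress libraries, with no overlap. The ratio of Kcnmb1 to Kcnmb4 was 0.393 to 0.885 in control and 0.231 to 0.271 in stress. Kcnmb4os2, a non-coding RNA from the opposite strand that overlaps 20.8% of the exon bases of Kcnmb4, was at 12.1 to 29.45 normalized counts in the 12 libraries and was not called. Strand use in the counting is not given in the sources used here, so reads of this pair may not be separable. Of the leucine-rich gamma subunits, which shift BK opening to lower voltages, Lrrc55 was tested and was at 278 ± 29.7 and 327 ± 38.8 (log2 fold change 0.23 ± 0.09, limma adjusted p = 0.0553).

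Kcnmb1 lies on chromosome 11 from 33963013 to 33973641 on the plus strand (GENCODE M21, build GRCm38). It sits within the span of Kcnip1, a regulator of Kv4 channels on the minus strand from 33629339 to 33993152, with 0 exon bases shared. Kcnip1 was also lower, at a log2 fold change of -0.48 ± 0.08 (limma adjusted p = 0.00031), with 481 to 602 normalized counts in control and 355 to 460 in stress libraries. Because Kcnmb1 is known from vascular muscle, pericyte and smooth muscle markers were read beside it. Of 12, 4 were lower and none was higher, where 13.4% and 12.8% of all genes tested were. The summed level of these markers was 13780 to 14410 in control and 12300 to 13060 in stress libraries. Rgs5 was at -0.29 ± 0.04 and Tagln at -0.47 ± 0.15 on the log2 scale. Myosin heavy chain Myh11 and smooth muscle actin Acta2 were not called, at 0.12 ± 0.17 and -0.25 ± 0.20. The lowest marker, Higd1b, averaged 12.8 normalized counts, and the part of these cells in the fall of Kcnmb1 was not tested.

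**Figure D2:**
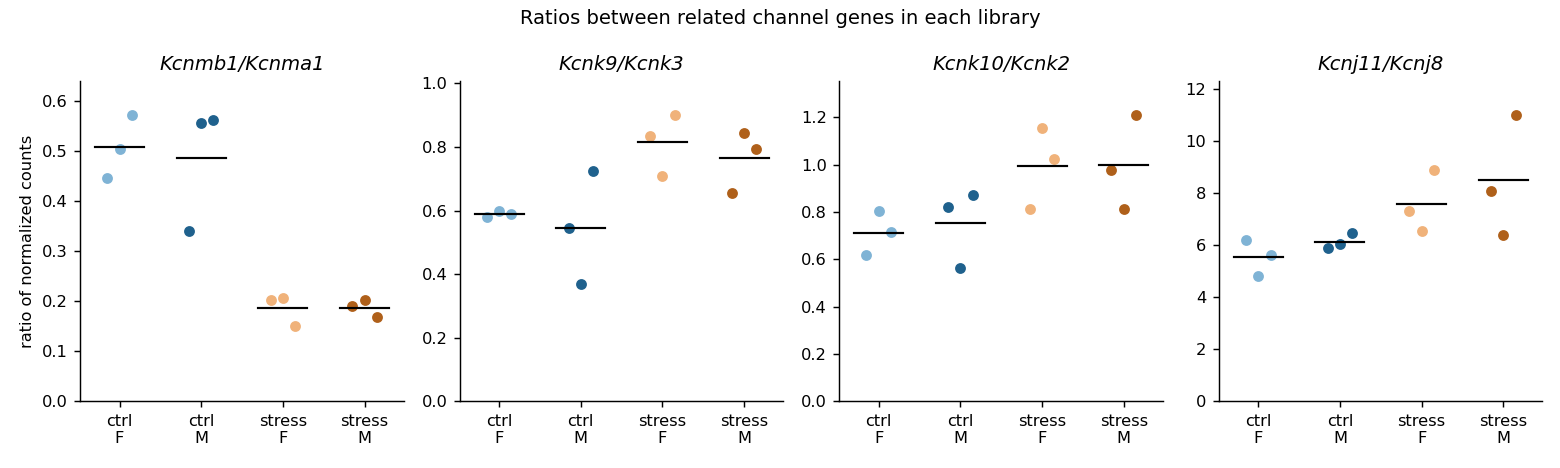
Ratio of normalized counts between related channel genes in each library (points) with the mean of each group of 3 (line), for control (ctrl) and stress, females (F) and males (M). Kcnmb1/Kcnma1 does not overlap between treatments (0.341 to 0.572 against 0.151 to 0.207), whereas the other 3 ratios plotted do.

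Of the 11 leak channel genes 6 were called, 4 higher and 2 lower. Kcnk18 encodes TRESK, a calcineurin-regulated leak channel known mainly from sensory neurons. It was at 606, 615 and 697 normalized counts in the control females and at 620, 667 and 723 in the control males. In the stress females it was at 867, 840 and 834, and in the stress males at 1014, 949 and 1102. All stress libraries were above all control libraries, and stress males were above stress females. The log2 fold change was 0.51 ± 0.06 (limma adjusted p = 1.14e-05).

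Kcnk9 encodes TASK-3, an acid-sensitive leak channel whose gene is known to be imprinted and expressed from the maternal copy. Its control females were at 325, 318 and 323 normalized counts and its control males at 353, 250.3 and 416. Its stress females were at 540, 470 and 578.5 and its stress males at 442, 515 and 599. Stress libraries again lay above all control libraries, though control males spread more widely than control females. On the log2 scale the change was 0.67 ± 0.11 (limma adjusted p = 0.000245). Kcnk18, Kcnk9 and Kcnmb1 were the 3 of 35 channel genes whose stress and control libraries did not overlap. That is 2 genes above the controls, where 5.21% of all genes tested were, and 1 below, where 5.73% were, or 10.9% in either direction.

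Kcnk3 encodes TASK-1, the closest relative of TASK-3, with which it can form mixed channels. Its control females stood at 561, 529.5 and 548 normalized counts, its control males at 647, 677 and 574, its stress females at 648, 662 and 643, and its stress males at 675, 609 and 754. The stress females were above the control females, while the males of both treatments overlapped. A log2 fold change of 0.18 ± 0.06 (limma adjusted p = 0.0431) kept its call, among the 12 settings that left out a library, only without control male replicate 2 or stress male replicate 2. The ratio of Kcnk9 to Kcnk3 counts was 0.568 ± 0.115 in control and 0.790 ± 0.0913 in stress (SD, n = 6 each), with ranges of 0.3695 to 0.724 and 0.655 to 0.900 that overlap.

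The TREK group responds to stretch, heat and lipids. Kcnk10, which encodes TREK-2, was at 299, 357 and 293 normalized counts in control females and 390, 297 and 366 in control males. It was at 354, 501 and 418 in stress females and 419, 382 and 515.5 in stress males. The groups overlapped, since stress female replicate 1 and stress male replicate 2 lay below the highest control library. Its log2 fold change was 0.37 ± 0.10 (limma adjusted p = 0.0136). Its relatives Kcnk2 (TREK-1) and Kcnk4 (TRAAK) were at -0.08 ± 0.07 and -0.10 ± 0.10 (limma adjusted p = 0.447 and 0.489). Of the exon bases of Kcnk4, 13.1% are shared with Catsperz on the same strand, so its counts are uncertain, and 12.2% of those of Kcnk2 with an antisense RNA. The ratio of Kcnk10 to Kcnk2 went from 0.733 ± 0.121 to 0.998 ± 0.167 (SD, n = 6 each), with overlap.

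The 2 leak channel genes that fell were Kcnk1 and Kcnk13. Kcnk1, encoding TWIK-1, was at 1349, 1316 and 1184 normalized counts in the control females and 1335, 1276 and 1179 in the control males. It was at 1130, 1287 and 1045 in the stress females and 990.4, 1028 and 1011 in the stress males. Stress males lay below all controls, and stress female replicate 2 lay among the controls. This was a log2 fold change of -0.24 ± 0.06 (limma adjusted p = 0.00547). Kcnk13 encodes THIK-1, a halothane-inhibited leak channel also known from microglia. Its control females were at 253.5, 302 and 239 normalized counts and its control males at 264, 258 and 268. Its stress females were at 178, 243 and 199 and its stress males at 169, 196 and 206. The 2 treatments overlapped through a single pair, stress female replicate 2 and control female replicate 3. On the log2 scale the change was -0.42 ± 0.09 (limma adjusted p = 0.00373). Of 12 macrophage markers 1 was called higher, Cd163, and none lower, and their summed levels were 2320 to 2879 in control and 2495 to 3211 in stress libraries; their part was not tested. Kcnk12, the partner THIK-2, was at -0.12 ± 0.08 (limma adjusted p = 0.295). Kcnk5 (TASK-2, opened by alkaline pH) and Kcnk6 (TWIK-2, a relative of TWIK-1) were not called either, at 0.03 ± 0.10 and -0.19 ± 0.20.

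**Figure D3:**
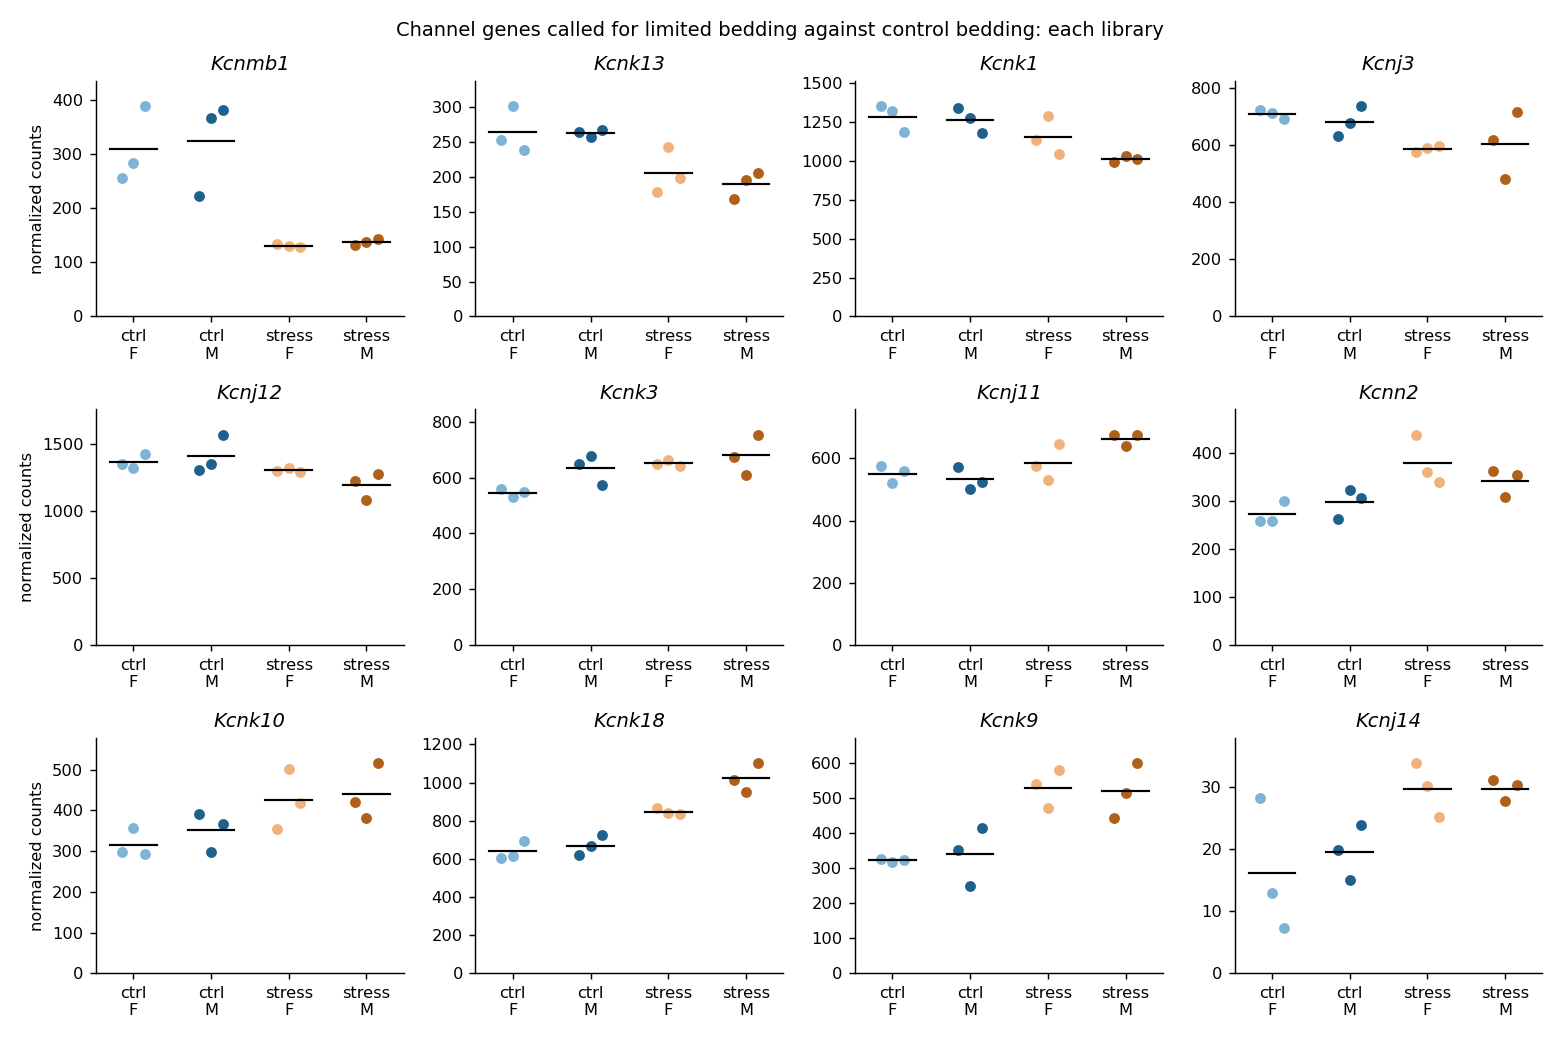
Normalized counts in each library (points, y axis from 0) for the 12 channel genes called over both sexes, ordered from the largest fall to the largest rise, with the mean of each group of 3 (line). Stress and control libraries do not overlap for Kcnmb1, Kcnk18 and Kcnk9 and overlap for the other 9 genes.

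The 250 bases before the RefSeq start site (build GRCm38.p6) are printed for the 4 called genes of lowest p with a single promoter entry. Of these, Kcnk18 rose and the others fell. All are on the plus strand, written 5′ to 3′. Capitals mark CG dinucleotides and the glucocorticoid receptor half-site AGAACA on either strand, searched because the study concerns stress.
Kcnmb1, chr11:33962763-33963012: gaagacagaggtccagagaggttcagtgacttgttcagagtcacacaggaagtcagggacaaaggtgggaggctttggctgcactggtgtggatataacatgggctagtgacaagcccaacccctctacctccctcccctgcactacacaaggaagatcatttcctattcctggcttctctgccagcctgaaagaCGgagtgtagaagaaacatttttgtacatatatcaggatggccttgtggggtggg
Kcnk18, chr19:59219398-59219647: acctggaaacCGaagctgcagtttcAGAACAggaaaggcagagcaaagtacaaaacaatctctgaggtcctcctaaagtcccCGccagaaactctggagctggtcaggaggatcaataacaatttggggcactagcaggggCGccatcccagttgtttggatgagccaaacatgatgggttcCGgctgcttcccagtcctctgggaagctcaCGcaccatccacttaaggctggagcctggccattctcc
Kcnk13, chr12:99964249-99964498: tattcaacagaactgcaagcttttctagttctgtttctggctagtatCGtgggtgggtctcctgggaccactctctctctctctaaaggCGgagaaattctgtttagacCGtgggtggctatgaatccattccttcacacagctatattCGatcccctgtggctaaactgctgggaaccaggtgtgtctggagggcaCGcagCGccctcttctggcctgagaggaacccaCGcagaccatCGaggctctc
Kcnk1, chr8:125994852-125995101: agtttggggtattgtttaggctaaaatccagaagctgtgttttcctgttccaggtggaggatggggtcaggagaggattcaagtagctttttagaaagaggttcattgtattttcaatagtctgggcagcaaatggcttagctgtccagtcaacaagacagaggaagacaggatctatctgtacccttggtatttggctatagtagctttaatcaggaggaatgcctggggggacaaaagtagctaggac

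The printed stretch held 1 CG in Kcnmb1, 5 in Kcnk18, 8 in Kcnk13 and 0 in Kcnk1. With the 50 bases after the start included, the counts were 1, 6, 9 and 10 in the same order. The median over all promoters was 7. Of the 4 printed genes, Kcnk18 held a half-site, starting at position -225 from the RefSeq start site. In GENCODE M21 the gene span of Kcnk18 begins upstream of the printed stretch, at 59219214. The stretch and its half-site thus lie within that span. For Kcnk1 the GENCODE span begins downstream of the printed stretch, at 125995170. RefSeq promoter entries were found for 28 of the 36 genes, 37 entries in all. The half-site AGAACA, in the 300 bases from 250 before to 50 after the start and on either strand, was found in 8 of the 37 entries (21.6%), against 19.0% of all 32851 promoters. The GC box GGGCGG was found in 16 entries (43.2%, against 35.7%) and the TATA box TATAAA in 4 (10.8%, against 13.6%). These are matches of letters, and none is evidence of binding.

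Inward rectifiers had 12 genes tested, of which 2 were called higher and 2 lower. The strong rectifiers of the Kir2 group, which hold the resting potential, had 1 gene called lower and 1 higher of 4. Kcnj12, encoding Kir2.2, was at 1353, 1326 and 1431 normalized counts in control females and 1309, 1351 and 1572 in control males. It was at 1300, 1325 and 1294 in stress females and 1223, 1084 and 1279 in stress males. Every stress library except stress female replicate 2 lay below all controls. That made a log2 fold change of -0.15 ± 0.05 (limma adjusted p = 0.0490), and of the 12 settings that left out a library only those without control male replicate 1 or stress male replicate 3 kept the call. Kcnj14, encoding Kir2.4, was low, at 28.2, 13.0 and 7.35 normalized counts in control females, 19.95, 15.1 and 24.0 in control males, 33.9, 30.2 and 25.3 in stress females and 31.2, 27.7 and 30.3 in stress males. Control female replicate 1 lay among the stress libraries and the other 5 controls below them. The log2 fold change of 0.81 ± 0.28 (limma adjusted p = 0.0417) was called, of those 12 settings, only without control female replicate 1 or control male replicate 3. Kcnj2 (Kir2.1) and Kcnj4 (Kir2.3) were not called over both sexes, at -0.14 ± 0.14 and -0.35 ± 0.14, and Kcnj4 was called without stress male replicate 2 (limma adjusted p = 0.0283).

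Channels gated by ATP pair a Kir6 pore with a sulfonylurea receptor. Kcnj11, encoding the Kir6.2 pore, was at 574.5, 520 and 560 normalized counts in control females and 574, 501 and 525 in control males. It was at 574, 531 and 648 in stress females and 676, 641 and 674 in stress males. Stress males lay above all controls, and 2 stress females lay among them. Its log2 fold change was 0.20 ± 0.06 (limma adjusted p = 0.0248), and the call was lost without control female replicate 2, control male replicate 2 or stress female replicate 3. The receptor that Kir6.2 most often pairs with, Abcc8 (SUR1), lies next to it on chromosome 7, from 46104523 to 46180033, against 46093953 to 46100764 for Kcnj11, both on the minus strand. Abcc8 was at 492.5 to 553 in control and 561 to 654 in stress libraries, without overlap, at a log2 fold change of 0.24 ± 0.06 (limma adjusted p = 0.00604). The pair known from blood vessels, Kcnj8 (Kir6.1) and Abcc9 (SUR2), was not called, at -0.24 ± 0.13 and -0.12 ± 0.09. The ratio of Kcnj11 to Kcnj8 was 4.83 to 6.45 in control and 6.40 to 10.98 in stress libraries, which overlap.

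The G protein-gated channels carry the potassium current opened by opioid and other inhibitory receptors. Kcnj3, encoding GIRK1, was at 723, 712.5 and 692 normalized counts in control females and 632, 677 and 737 in control males. It was at 578, 592 and 596 in stress females and 619, 480.3 and 715 in stress males. Stress females lay below all controls, and stress male replicate 3 lay among them. This was a log2 fold change of -0.23 ± 0.08 (limma adjusted p = 0.0396), and of the 12 settings without a library only those without control male replicate 1, stress male replicate 1 or stress male replicate 3 kept the call. Of its exon bases 31.1% are shared with Gm26794, a non-coding RNA on the opposite strand. The partners Kcnj6 (GIRK2) and Kcnj9 (GIRK3) were sparse, at means of 13.7 and 25.3 normalized counts, and were not called, at -0.73 ± 0.37 and -0.35 ± 0.23.

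Among 24 receptors and G proteins that couple to these channels, 4 were higher and 3 lower, with a median of 0.02. Over all genes tested, 12.8% were higher and 13.4% lower. The M2 muscarinic receptor gene Chrm2 was at 209 to 280 normalized counts in control and 329 to 460 in stress libraries, without overlap (log2 fold change 0.74 ± 0.09, limma adjusted p = 1.48e-05). The adenosine receptor gene Adora1 and Rgs4, which speeds the closing of G protein signals, were lower, at -0.35 ± 0.05 and -0.31 ± 0.04, and Gnai1 was higher, at 0.20 ± 0.04. Of the 4 opioid receptor genes, picked out after their values were seen, Oprd1 of the delta receptor was called higher at 0.22 ± 0.07 (limma adjusted p = 0.0355). Oprm1 of the mu receptor, Oprl1 and Oprk1 were not called, at 0.19 ± 0.13, 0.14 ± 0.05 and 0.06 ± 0.10.

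Kcnj10 encodes Kir4.1, the channel by which satellite glia take up potassium, and Kcnj16 its partner Kir5.1. Kcnj10 was at 1914 to 2050 normalized counts in control females, 1898 to 2120 in control males, 1697 to 1943 in stress females and 1965 to 2234 in stress males. All stress males were above all stress females, the control libraries lay between and among them, and over both sexes its log2 fold change was -0.04 ± 0.05 (limma adjusted p = 0.585). Kcnj16 was at -0.34 ± 0.20. Satellite glia markers, read beside them, had 7 of 12 lower and 1 higher, where 13.4% and 12.8% of all genes tested were. The summed level of these markers was 113900 to 125800 in control and 95130 to 101700 in stress libraries. The part of satellite glia in the values of either gene was not tested. The epithelial channel gene Kcnj13 (Kir7.1) was at 0.43 ± 0.24 and was called without control male replicate 2 (0.63, limma adjusted p = 0.0460). Of its exon bases 49.1% are shared with Gigyf2 on the opposite strand, so its counts are uncertain. Kcnj15, the gene below the filter, was at 3.26 to 15.5 normalized counts.

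Of the small- and intermediate-conductance calcium-activated channels, known for the afterhyperpolarization that follows firing, 1 of 4 was called. Kcnn2, encoding SK2, was at 259, 258 and 301 normalized counts in control females and 262, 323 and 307 in control males. It was at 439, 361 and 340.1 in stress females and 362, 308 and 356 in stress males. Of the stress libraries, male replicate 2 lay within the control range. On the log2 scale the change was 0.34 ± 0.08 (limma adjusted p = 0.00819). Kcnn1 (SK1), the most abundant of the 4, was at 834, 953 and 1100 in control females, 918.5, 973 and 1054 in control males, 981, 845 and 1034 in stress females and 1098, 1085 and 1016 in stress males. The treatments overlapped throughout, at a log2 fold change of 0.06 ± 0.07 (limma adjusted p = 0.594). Kcnn3 (SK3) and Kcnn4 (IK) were at -0.01 ± 0.15 and -0.08 ± 0.09.

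The sodium-activated channels were not called. Kcnt1, encoding Slack, the pore of a sodium-activated current known to be large in sensory neurons, was at 3632, 3457 and 3729 normalized counts in control females, 3553, 3467 and 3871 in control males, 3528, 3410 and 4429 in stress females and 3760, 3658 and 4144 in stress males. Stress female replicate 3 and stress male replicate 3 were above all controls, stress female replicate 2 was below them, and the other 3 stress libraries lay among them. Its log2 fold change was 0.07 ± 0.06 (limma adjusted p = 0.392). Kcnt2 (Slick) was at 79.3 to 167 in control and 86.2 to 152 in stress libraries, at -0.13 ± 0.15. Kcnu1, the Slo3 channel known from sperm, was at 84.9, 91.95 and 98.0 normalized counts in control females, 92.3, 105.9 and 99.3 in control males, 91.3, 82.1 and 96.45 in stress females and 97.6, 109.3 and 119 in stress males. Control and stress libraries overlapped, at a log2 fold change of 0.05 ± 0.11. Of 12 calcium sensors and regulators of these channels, Jph3 was called higher and Csnk2a1 lower, at 0.12 ± 0.04 and -0.12 ± 0.04. The shares of all genes tested were 12.8% higher and 13.4% lower.

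In females 4 of the 35 channel genes were called (11.4%), 3 higher and 1 lower, against 11.0% of all genes tested, 4.96% higher and 6.07% lower. In males 8 were called (22.9%), 3 higher and 5 lower, against 15.8%, 7.71% higher and 8.11% lower. Kcnmb1, Kcnk18 and Kcnk9 were called in each sex. Kcnmb1 was at -1.22 ± 0.18 in females and -1.19 ± 0.18 in males (limma adjusted p = 0.000579 and 0.000439). Kcnk18 was at 0.41 ± 0.08 and 0.61 ± 0.08 (limma adjusted p = 0.00423 and 0.000146), and Kcnk9 at 0.71 ± 0.15 and 0.63 ± 0.15 (limma adjusted p = 0.00629 and 0.00998). The call of Kcnk9 in males was lost without control male replicate 2 (0.42, limma adjusted p = 0.0526) or stress male replicate 3 (0.52, limma adjusted p = 0.0515).

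Kcnn2 was also called in females, at 0.47 ± 0.12 (limma adjusted p = 0.0190), a call lost without control female replicate 1, control female replicate 2 or stress female replicate 1. It was at 0.20 ± 0.12 in males. The other calls in males were Kcnj11 at 0.32 ± 0.09, Kcnk1 at -0.32 ± 0.08, Kcnk13 at -0.47 ± 0.13, Kcnj12 at -0.24 ± 0.08 and Kcnj4 at -0.60 ± 0.19, with adjusted p from 0.0125 to 0.0467. Kcnj4 was at 103, 107 and 89.1 normalized counts in control males and 59.1, 83.1 and 56.2 in stress males, without overlap. In females it was at 80.5, 85.8 and 98.8 in control and 67.8, 95.5 and 86.0 in stress, with overlap. Each of these 5 calls in males was lost without at least 1 library: Kcnk1 without control male replicate 1, Kcnk13 without any of the control males or stress male replicate 1, and Kcnj11 without control male replicate 2 or 3 or stress male replicate 1 or 3. Kcnj12 kept its call without control male replicate 1, stress female replicate 2 or stress male replicate 3, and Kcnj4 without stress female replicate 1, stress female replicate 2 or stress male replicate 2. Over the 12 such settings, the channel genes called in males fell to 5 without control male replicate 1 or stress male replicate 3. They fell to 4 without control male replicate 2, control male replicate 3 or stress male replicate 1.

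The difference between the sexes was tested directly, and 0 of the 35 channel genes were called for a stress effect that differed between them (limma; 1 had an unadjusted p under 0.05). Of all 15194 genes 0 were called, or 0%, and 1260 had an unadjusted p under 0.05 in limma. That 1 was Kcnj10, whose effect in males exceeded that in females by 0.22 ± 0.10 on the log2 scale (limma adjusted p = 0.587), chosen here after its value was seen. All 12 genes called over both sexes had the same sign in females and in males. Calling on the mean of the female and male effects favours such agreement. Kcnj14, Kcnj3, Kcnk10 and Kcnk3 were called over both sexes and in neither sex alone. Between males and females of both treatments 0 of 35 were called (limma; 0.0987% of all genes were called, 0.0395% higher and 0.0592% lower in males). At an unadjusted p under 0.05 in limma there were 3 of 35 channel genes and 1437 of all 15194. Those 3 were Kcnk18 at 0.17 ± 0.06, Kcnk3 at 0.13 ± 0.06 and Kcnmb2 at -0.32 ± 0.13, males over females.

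**Figure D4:**
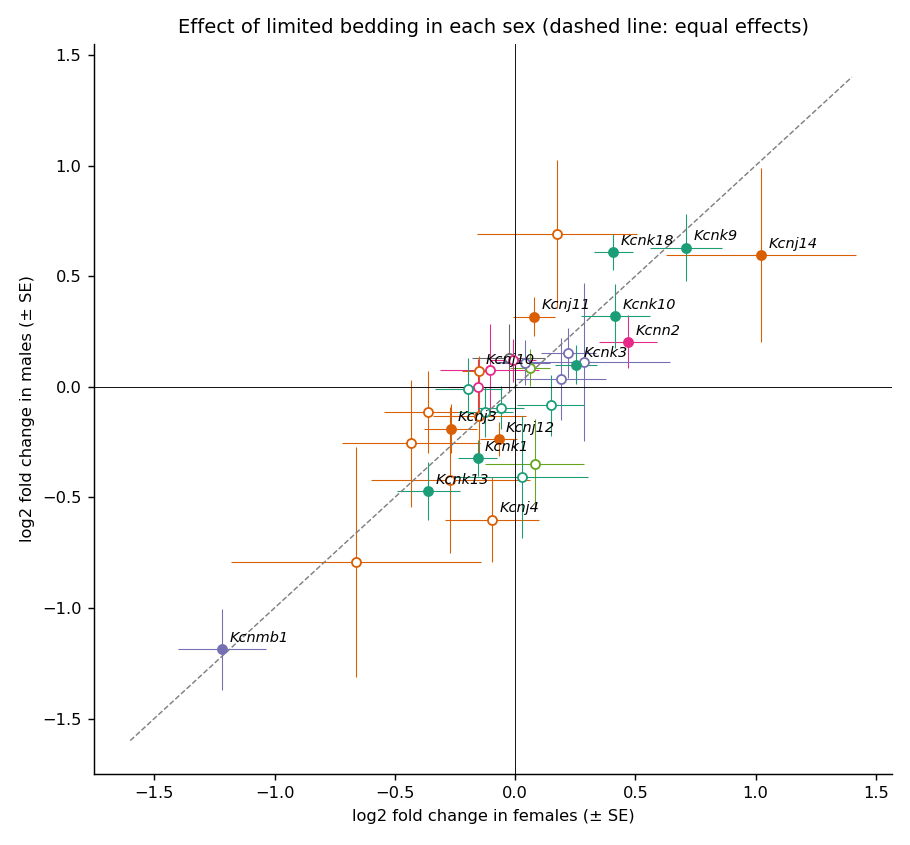
Log2 fold change of stress over control in males (y axis) against females (x axis) for the 35 channel genes, with standard errors; filled points were called over both sexes and colours are the families as in the plot of fold changes. Kcnmb1 lies near the dashed line of equal effects at -1.22 and -1.19, and Kcnj4 and Kcnj11 lie farther from 0 in males than in females, differences that were not called.

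Levels between genes were compared per kilobase of merged exons, which need not equal the length used in the authors' counting. Kcnk1 was the highest at 527 normalized counts per kilobase (mean of 12 libraries), followed by Kcnj12 at 480.4, Kcnt1 at 392, Kcnj10 at 364 and Kcnk18 at 229. Kcnmb4 was the highest BK gene at 155 per kilobase, above Kcnmb1 at 53.7, Kcnma1 at 40.0 and Kcnmb2 at 28.9. The Kcnmb1 mean pools control and stress libraries, which differed. Over the libraries Kcnmb1 ran from 30.5 to 92.6 per kilobase and Kcnma1 from 33.1 to 49.9, so their order need not hold within stress. Kcnk9, the leak gene with the largest rise, was at 34.8 per kilobase, and Kcnj6 and Kcnj15 were lowest at 1.80 and 1.19. Of the 35 pairs of neighbours in this order, 34 had overlapping ranges over the libraries, the exception being Kcnj9 above Kcnj6, so the order between neighbours is loose. Among the 21 genes with a mean of at least 200 normalized counts, the coefficient of variation over the 6 control libraries ran from 4.41% for Kcnj10 to 22.6% for Kcnmb1, with a median of 9.41%. Kcnmb1 thus had both the widest spread among controls and the largest change of these 21.

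**Figure D5:**
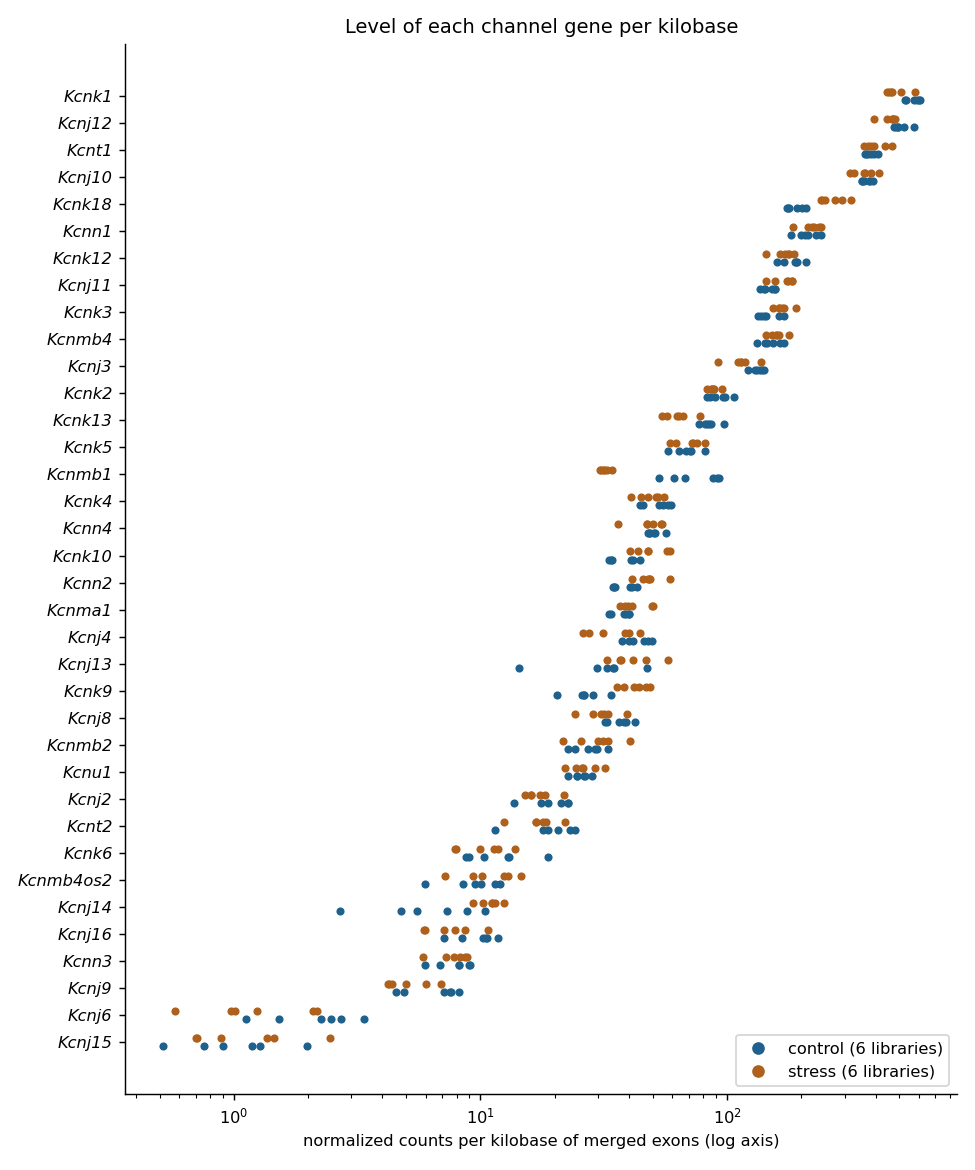
Normalized counts per kilobase of merged exons (log axis) in each of the 6 control and 6 stress libraries for the 36 channel genes, ordered by mean. Kcnk1, Kcnj12, Kcnt1 and Kcnj10 are highest, and the gap between the colours is widest for Kcnmb1.

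The voltage-gated potassium channels and their partners, read as the nearest other family, went mainly one way: of 33 tested genes 20 were lower and 2 higher, with a median log2 fold change of -0.26. Over all genes tested, 13.4% were called lower and 12.8% higher. For the 35 genes described here the counts were 5 lower and 7 higher, with a median of -0.04. The difference between these lists was not tested.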

How the data were processed

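RNA-seq of 12 ganglion libraries was analysed. STAR, Salmon, DESeq2 and the build mm10 are named in the submitters' processing notes, without versions. For annotation, strandedness and any filter the sources used here give nothing. The deposited signal is a normalized count, taken here as gene counts that the authors divided by a DESeq2 factor per library. That scaling could not be checked. Per the file headers, the authors also deposited log2 fold changes with standard errors, a test score, and p-values with adjusted values.

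Values up to 12 lay within 0.1 of a whole multiple of a fitted step for 72.4% to 86.1% of values in control and 27.6% to 65.4% in stress libraries, too few to recover reads, so raw depth is uncertain and no count test was run; the reason for the difference between treatments is not known. The 15194 genes that reached 10 normalized counts in 3 or more libraries were tested and 128 were not. The test, limma 3.58.1 under R 4.3.3, was run on log2(value + 1) with a trended prior variance and a mean for each treatment and sex. Adding 1 shrinks ratios of low genes, yet their log2 fold changes went either way beside the authors' deposited values. Kcnj14 was at 0.81 here and 0.75 there, and Kcnj6 at -0.73 here and -0.75 there. The whole table was fitted and adjusted, and the threshold was an adjusted p of 0.05. The procedure was tested on simulated data. Alternatives covered pseudocount, filter, scaling, prior, weights, replicate block, model and each library left out.

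Channel genes and lists were chosen with earlier results of these data known. Every channel gene is accounted for; values in every library are given for those called over both sexes, called in a sex, or the most abundant of a family per kilobase. At most 4 called genes of a partner list are named, and the opioid receptors, Gnaq and Plcb4 were added after their values were seen.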

Additional observations from a re-analysis of the deposited data

Results flagged for a closer look

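In 36 genes and 2 treatments, 72 groups of 6 libraries were searched for a library far from the others, and 1 was found, where chance alone gives about 1 in 20. Kcnn4, the intermediate-conductance channel, was at 290 normalized counts in control male replicate 3, against 245 to 261 in the other 5 control libraries. Its log2 fold change stayed uncalled in every setting that left out a library.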

How the results depend on the processing

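Over both sexes the channel genes called numbered 12 and ranged from 8 to 12 over the settings that kept all libraries and from 7 to 10 when 1 library was left out, with 7 without control female replicate 2 or stress female replicate 3. In females the 4 calls ranged from 4 to 6 and, with a library left out, from 3 to 6. In males the 8 calls ranged from 7 to 8 and from 4 to 8. For the difference between the sexes and for males against females the count was 0 throughout. The partner and marker genes called numbered 82, from 68 to 89 over the other settings and from 71 to 85 with a library left out. No channel gene that was called, in the reported fit or under an alternative, changed its direction. With 1 prior variance for all genes the calls were 8, without Kcnj3, Kcnj12, Kcnj14 and Kcnk3, and with libraries scaled to a common total 10, without Kcnj3 and Kcnj12; upper quartile scaling also lost Kcnj12. Library weights exchanged Kcnj12 for Kcnj4, and a model without sex lost Kcnj12 and Kcnk3. By the labels, libraries share only a replicate number. Of 6 same-sex pairs, 1 deviated together at a correlation over 0.1, which cannot tell whether libraries share a litter or a preparation. The replicate block, within sex or across sexes, called 12 over both sexes, with Kcnma1 (log2 fold change 0.19, limma adjusted p = 0.0287 and 0.0242) in place of Kcnk3 (0.18, 0.0708 and 0.0519). In females it called 5 and 4 and in males 8 and 8. The within-sex block could not be fitted for males against females. Kcnj14, Kcnj6, Kcnj9 and Kcnj13, with means under 50 normalized counts, had standard errors of 0.23 to 0.37 on the log2 scale, and Kcnj16 and Kcnk6, also under 50, of 0.20, which limits what could be called there.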

Other observations

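Genes that place or regulate leak channels were called in both directions, 3 of 14 tested higher and 3 lower over both sexes. The shares of all genes tested were 12.8% and 13.4%, so the count by itself says little. The median log2 fold change of the 14 was -0.02. Akap5, a scaffold that is known to bind TREK-1, was at 101.5 to 151.5 normalized counts in control and 163.5 to 296.5 in stress libraries, without overlap (log2 fold change 0.92 ± 0.12, limma adjusted p = 3.94e-05). Receptor signalling through Gq closes several leak channels. Of its parts, Plcb1 was higher at 0.31 ± 0.06 and Gna11 at 0.20 ± 0.04. Plcb3 was lower at -0.27 ± 0.04, and so were Gnaq at -0.19 ± 0.05 and Plcb4 at -0.23 ± 0.08 (limma adjusted p = 0.0112 and 0.0366), so that the called parts went both ways.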
